A study of Drosophila melanogaster with 12 samples.

Results

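The diet by svp RNAi interaction is, for each gene, the log2 difference between larvae labelled svp RNAi and control larvae on a high-sugar diet, minus the same difference on a control diet. A positive value means that the genotype difference was more positive on high sugar; a value of 0 means that it was equal on both diets. The interaction was computed from all 12 RNA-seq libraries of the series for 9367 genes of the 9527 rows in the authors' table. The 156 rows whose gene name repeats or differs from another only in upper or lower case were left out, as were 4 rows named by a bare number.

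The libraries were made from fat bodies of female Drosophila melanogaster larvae in the wandering stage at the end of larval life, in 4 groups of 3. Larvae labelled svp RNAi came from the VDRC stock 100762, which carries a UAS-driven hairpin against seven-up (svp), and controls came from the VDRC stock 60100. Both were crossed to the same line, so every larva carried the fat body driver r4-GAL4 and UAS-Dcr2, which strengthens RNA interference. Each genotype was reared on a high-sugar diet with 0.7 M sucrose or a control diet with 0.15 M sucrose. The knockdown rests on 1 RNAi stock, and no label tells if replicates were separate collections of larvae. The p-values therefore reflect the spread among these libraries, part of which may be technical.

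The fat body is the insect counterpart of liver and adipose tissue. It stores triglyceride and glycogen, secretes storage and immune proteins into the hemolymph, and expresses many cytochrome P450s and glutathione S-transferases that process toxins and hormones. Seven-up is an orphan nuclear receptor of the COUP-TF family, best known in flies for specifying photoreceptor and neuroblast fates. Chronic high dietary sucrose makes fly larvae hyperglycemic, fat and insulin resistant, and the question the design poses is whether the response to that diet depends on svp in the fat body.

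The deposited values are normalized, read-like abundances, with library totals from 4663394 to 6490130. Whether they were divided by gene length is not given in the sources used here. They are therefore compared between libraries, for 1 gene or for the sum of a fixed set of genes, and never between genes. The targeted gene went against its label. On high sugar svp read 1712, 1479.6 and 2179.5 in the libraries labelled svp RNAi, against 631, 628 and 664 in control. In control-diet larvae svp read 1658, 1664 and 1350.5 in the libraries labelled svp RNAi, against 516, 477 and 373 in control. Every library labelled svp RNAi was above every control, by 2.76-fold on high sugar and 3.43-fold on the control diet. These data therefore do not show a knockdown, and whether the svp values include reads from the hairpin was not tested. The groups are called by their labels throughout, and every direction below sets libraries labelled svp RNAi against controls. The excess was similar on both diets, with an interaction of -0.32 ± 0.22 on the log2 scale (SE, 95% interval -0.79 to 0.16, limma adjusted p = 0.594). The fat body identity of the libraries was clear from 8 markers, including the larval serum proteins, which summed to 1258000 to 1466000 in high-sugar libraries labelled svp RNAi and 1654000 to 1770000 in high-sugar controls. On the control diet the sums were 1057000 to 1455000 in libraries labelled svp RNAi and 1759000 to 1894000 in controls.

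Few genes had an interaction past the threshold. In the limma model over all 12 libraries, 18 genes, 0.192% of those tested, had an interaction at an adjusted p under 0.05. In 10 of them, 0.107%, the interaction was positive, and in 8 of them, 0.0854%, it was negative. For comparison, the genotypes differed in 1255 genes on high sugar (13.4%), of which 672 (7.17%) were higher and 583 (6.22%) lower in libraries labelled svp RNAi. They differed on the control diet in 802 genes (8.56%), of which 400 (4.27%) were higher and 402 (4.29%) lower. At an unadjusted p under 0.05 the interaction held 1105 genes (11.8%), 562 positive (6.0%) and 543 negative (5.80%).

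A gene called on 1 diet and not on the other was seldom shown to differ between the diets. Of the genes called for genotype on both diets, 497 of 500 moved in the same direction, which is 39.6% of the high-sugar calls and 62.0% of the control-diet calls. The 3 with opposite directions were CG33080, Pp2C1 and CG4829. Another 755 genes were called on high sugar alone, and 11 of these had an interaction past the threshold. A further 302 were called on the control diet alone, and 2 of these did. Across the 7399 genes with a mean value of at least 20, the genotype differences on high sugar and on the control diet had a correlation of 0.694, and over all 9367 genes it was 0.619, given as a description since genes are not independent replicates. The precision of the interaction sets a limit: its median SE was 0.289 on the log2 scale, all 18 calls had an interaction beyond 1 in size, and 547 genes did. For 5051 genes (53.9%) the 95% interval of the interaction lay wholly within 1 log2 unit of 0.

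**Figure D1:**
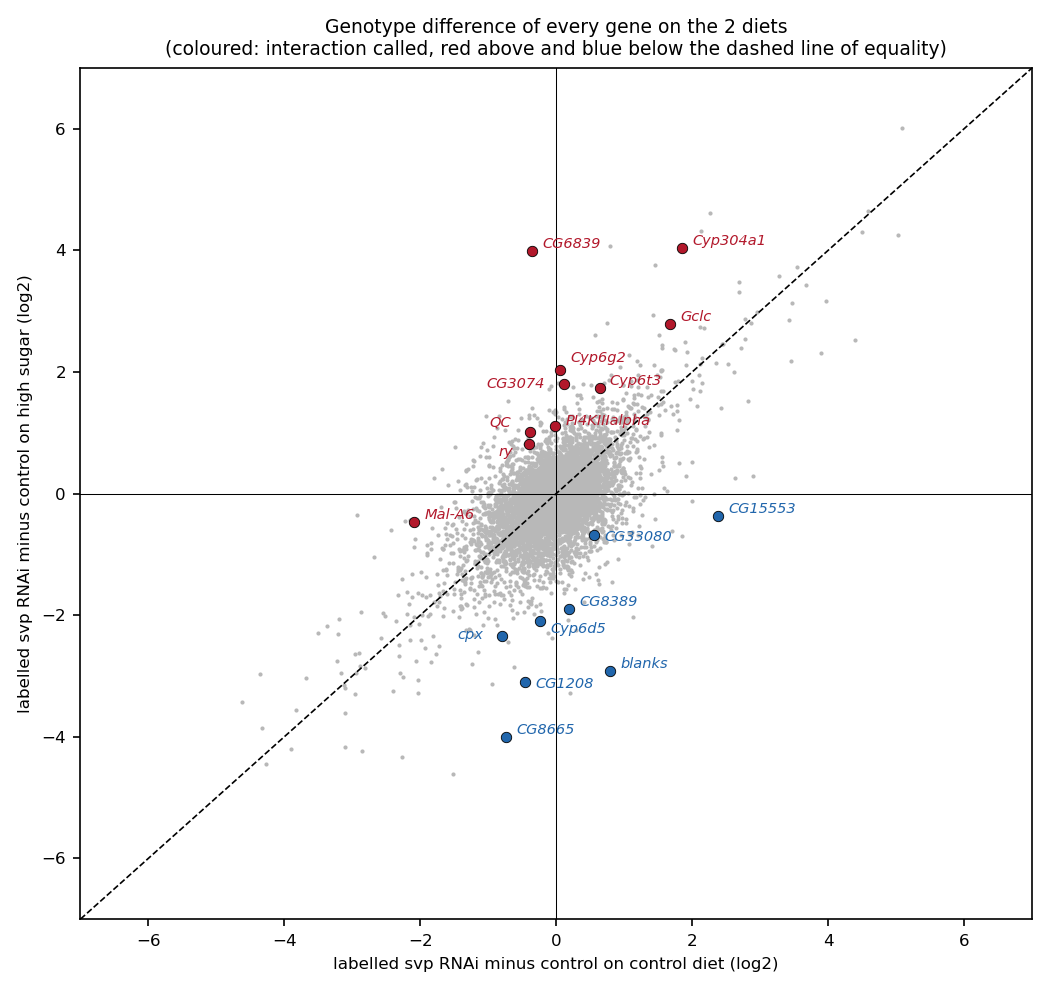
Genotype difference (log2, libraries labelled svp RNAi minus control) on the high-sugar diet (y axis) against the same difference on the control diet (x axis) for 9367 genes in grey; the 18 genes with an interaction are coloured, red for positive and blue for negative. The dashed line marks equal differences, and the coloured genes lie off it, with CG6839 farthest above and blanks farthest below.

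The 18 genes fall into 4 patterns. In 11 genes the genotypes differed on high sugar and not, past the threshold, on the control diet (CG8389, CG8665, Cyp6d5, CG6839, blanks, PI4KIIIalpha, CG3074, CG1208, Cyp6g2, QC and ry). In 2 genes, CG15553 and Mal-A6, they differed on the control diet and not, past the threshold, on high sugar. In 4 genes, Gclc, Cyp6t3, Cyp304a1 and cpx, they differed in the same direction on both diets, and more on high sugar. In CG33080 they differed in opposite directions.

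Cytochrome P450 enzymes, the monooxygenases that oxidize toxins, fatty acids and steroid hormones, gave 4 of the 18 genes, 3 with a positive and 1 with a negative interaction. Cyp304a1 had the largest excess of them. On high sugar Cyp304a1 read 529.9, 386 and 413 in the libraries labelled svp RNAi, against 40.3, 19.5 and 21.6 in control. Its control-diet values were 185, 169.8 and 156 in the libraries labelled svp RNAi, against 35.04, 38.1 and 73.2 in control. Both diets separated the genotypes without overlap, by 16.4-fold on high sugar and 3.62-fold on the control diet, an interaction of 2.18 ± 0.40 (log2, SE, limma adjusted p = 0.0408). Cyp6t3, which in the fly prothoracic gland is needed for ecdysone synthesis, showed the same pattern at a smaller scale. On high sugar Cyp6t3 read 218, 203 and 187 in the libraries labelled svp RNAi, against 56.6, 59.5 and 63.7 in control. Cyp6t3 read 99.7, 79.6 and 93.3 in the libraries labelled svp RNAi, against 59.2, 59.1 and 55.1 in control, when larvae ate the control diet. The genotypes again did not overlap on either diet, and the difference was 3.34-fold on high sugar and 1.56-fold on the control diet (interaction 1.1 ± 0.20, limma adjusted p = 0.0384).

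Cyp6g2, which metabolizes insecticides when overexpressed in flies, was raised on high sugar alone. There it read 141, 111 and 157 in the libraries labelled svp RNAi, against 41.5, 27.3 and 28.8 in control. With the control diet the values were 61.2, 32.3 and 52.98 in the libraries labelled svp RNAi, against 49.5, 50.1 and 37.8 in control. The groups separated 4.11-fold on high sugar and overlapped on the control diet (interaction 1.99 ± 0.35, limma adjusted p = 0.0366). Cyp6d5 did the opposite. It read 191, 183 and 210.1 in the libraries labelled svp RNAi, against 735, 917 and 849 in control on high sugar. Control-diet libraries gave Cyp6d5 values of 822, 781 and 489.7 in the libraries labelled svp RNAi, against 774, 734 and 906 in control. All 3 high-sugar libraries labelled svp RNAi sat 4.25-fold below their controls, while the 9 other libraries lay between 489.7 and 917 (interaction -1.85 ± 0.25, limma adjusted p = 0.00554).

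The family as a whole did not move one way. Of 66 P450 genes measured, 7 had a positive and 7 a negative interaction at an unadjusted p under 0.05, beside 6.0% and 5.80% of all genes, and the median interaction was -0.16 against -0.01 over all genes. The genotype contrast itself called 14 P450s higher and 11 lower on high sugar, and 12 higher and 6 lower on the control diet. Among all genes the shares were 7.17% and 6.22% on high sugar, and 4.27% and 4.29% on the control diet. Cyp4e3 had the most uneven values among the P450s that were not called. It averaged 161 ± 91.6 in the group labelled svp RNAi and 1236 ± 764 in control on high sugar, and 7.195 ± 4.44 in the group labelled svp RNAi and 10.5 ± 1.72 in control on the control diet (SD, n = 3 each; interaction -2.22 ± 0.70, limma adjusted p = 0.257); it was chosen after its values were seen.

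The glutathione and redox list gave 1 call. Gclc, the catalytic subunit of glutamate-cysteine ligase, the rate-limiting step of glutathione synthesis, was higher in libraries labelled svp RNAi on both diets and more so on high sugar. It read 1131, 1119.7 and 1014 in the libraries labelled svp RNAi, against 176, 142 and 151 in control on high sugar. Under control diet it read 406, 419.6 and 353 in the libraries labelled svp RNAi, against 120.1, 119 and 127 in control. Neither diet showed overlap, and the difference was 6.93-fold on high sugar and 3.19-fold on the control diet (interaction 1.12 ± 0.17, limma adjusted p = 0.0164). The high-sugar group labelled svp RNAi stood apart from the 9 other libraries.

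Most of the other members of the glutathione and redox list lay on the negative side. Of 48 measured genes, 11 had an interaction above 0, and 14 had a negative and 2 a positive interaction at an unadjusted p under 0.05. Over all genes 5.80% had a negative and 6.0% a positive one. Gclc was the 1 member past the adjusted threshold, and the list's median was -0.31. GstD9, a glutathione S-transferase, averaged 53.01 ± 8.63 in the group labelled svp RNAi and 106 ± 6.04 in control on high sugar, and 105 ± 15.9 in the group labelled svp RNAi and 88.4 ± 27.4 in control on the control diet (SD, n = 3 each). Its interaction was -1.27 ± 0.30 (limma adjusted p = 0.136). GstD1, an abundant transferase of the same cluster that is also known for detoxifying DDT, averaged 2282 ± 466 in the group labelled svp RNAi and 3193 ± 247 in control on high sugar, and 3187 ± 329 in the group labelled svp RNAi and 2404 ± 916 in control on the control diet (interaction -0.97 ± 0.30, limma adjusted p = 0.253). In both genes the mean of libraries labelled svp RNAi was below control on high sugar and above control on the control diet. The genotype contrast called 8 members higher and 6 lower on high sugar, and 9 higher and 1 lower on the control diet. Of all genes it called 7.17% higher and 6.22% lower on high sugar, and 4.27% and 4.29% on the control diet. GstD9 and GstD1 were chosen after their values were seen. Members of this family share sequence, and reads could have been split between near copies; how the authors assigned them is not given in the sources used here.

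Sugar and purine enzymes gave 1 call each. Mal-A6, a maltase of the alpha-glucosidase cluster that splits maltose and sucrose, differed between the genotypes on the control diet, where libraries labelled svp RNAi were lower. It read 339, 474 and 411 in the libraries labelled svp RNAi, against 512, 725 and 478 in control on high sugar. For Mal-A6 the control-diet values were 268, 237 and 298 in the libraries labelled svp RNAi, against 961, 1272 and 1214 in control. The genotypes did not overlap on either diet, but the 1.39-fold deficit on high sugar missed the threshold (limma adjusted p = 0.0913) and that on the control diet was 4.27-fold (interaction 1.62 ± 0.25, limma adjusted p = 0.0165). Its paralog Mal-A5 averaged 4091 ± 420.4 in the group labelled svp RNAi and 4685 ± 531 in control on high sugar, and 2496 ± 247 in the group labelled svp RNAi and 4387 ± 431 in control on the control diet, with an interaction of 0.62 ± 0.19 (limma adjusted p = 0.254). Of the 13 genes of sugar transport and digestion that were measured, Mal-A6, Mal-A5 and Amy-d had a positive interaction at an unadjusted p under 0.05 and none a negative one. The shares of all genes were 6.0% and 5.80%. The maltases are near copies of each other, so the split of reads between them is uncertain.

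The purine enzyme was ry (rosy), xanthine dehydrogenase, which makes uric acid and whose loss darkens the eye to brown. It read 695, 585 and 674 in the libraries labelled svp RNAi, against 439.8, 396 and 288 in control on high sugar. In control-diet larvae ry read 356, 308 and 323 in the libraries labelled svp RNAi, against 395, 493 and 418 in control. The order of the genotypes was opposite on the diets and neither pair overlapped. On high sugar the libraries labelled svp RNAi were 1.76-fold higher (adjusted p = 0.00236). On the control diet they were 1.32-fold lower, short of the threshold (adjusted p = 0.135), and the interaction was 1.22 ± 0.22 (limma adjusted p = 0.0382). Of 21 measured genes of the eye pigment and purine list, 2 had a positive and 2 a negative interaction at an unadjusted p under 0.05. The shares of all genes were 6.0% and 5.80%.

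PI4KIIIalpha, CG3074 and QC were called higher in libraries labelled svp RNAi on high sugar and were not called on the control diet. PI4KIIIalpha, the kinase that makes phosphatidylinositol 4-phosphate at the plasma membrane, read 1132, 1273 and 1380.3 in the libraries labelled svp RNAi, against 676, 578 and 509.6 in control on high sugar. Its control-diet values were 577, 486 and 543 in the libraries labelled svp RNAi, against 562, 538 and 519 in control. The 3 high-sugar libraries labelled svp RNAi were 2.15-fold above their controls, and the other groups had means from 535 to 588 (interaction 1.12 ± 0.18, limma adjusted p = 0.0186). CG3074, whose current symbol is Swim and whose secreted product binds Wingless, read 226, 295 and 260.3 in the libraries labelled svp RNAi, against 96.9, 60.4 and 68.9 in control on high sugar. CG3074 read 114, 106 and 93.1 in the libraries labelled svp RNAi, against 81.95, 92.6 and 116 in control, when larvae ate the control diet. The excess was 3.47-fold on high sugar, and the groups overlapped on the control diet (interaction 1.68 ± 0.27, limma adjusted p = 0.0186). QC, a glutaminyl cyclase that converts the first glutamine of secreted peptides to pyroglutamate, read 135, 139 and 129.6 in the libraries labelled svp RNAi, against 65.2, 70.3 and 63.7 in control on high sugar. With the control diet the values were 49.3, 58.3 and 38.5 in the libraries labelled svp RNAi, against 52.8, 69.02 and 69.3 in control. It was 2.01-fold higher on high sugar with little spread in either group, and on the control diet the groups overlapped (interaction 1.4 ± 0.25, limma adjusted p = 0.0366).

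A gene of vesicle fusion and a gene for a double-stranded RNA-binding protein had negative interactions. Complexin, the product of cpx, binds SNARE complexes and controls neurotransmitter release. The gene read 34.02, 36.9 and 26.2 in the libraries labelled svp RNAi, against 152, 152 and 198 in control on high sugar. Control-diet libraries gave cpx values of 79.9, 72.1 and 81.8 in the libraries labelled svp RNAi, against 156, 158 and 102 in control. It was lower in libraries labelled svp RNAi on both diets without overlap, 5.05-fold on high sugar and 1.74-fold on the control diet (interaction -1.54 ± 0.28, limma adjusted p = 0.0382). The 8 neuron markers, none of which was at 0, summed to 3760 to 4841 in high-sugar libraries labelled svp RNAi and 2319 to 2618 in high-sugar controls. On the control diet the sums were 3773 to 4788 in libraries labelled svp RNAi and 2145 to 2611 in controls. On high sugar 1 of the 8 was called higher and 4 lower, on the control diet 1 higher and 1 lower, and the part of neurons in the cpx difference was not tested. Of all genes 7.17% were called higher and 6.22% lower on high sugar, and 4.27% and 4.29% on the control diet.

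The blanks gene, known for a protein that binds double-stranded RNA and is needed in the fly testis, was near the bottom of the measured range in all but 1 group. On high sugar blanks read 4.76, 1.28 and 3.42 in the libraries labelled svp RNAi, against 26.7, 30.3 and 27.7 in control. Under control diet it read 7.91, 5.01 and 3.14 in the libraries labelled svp RNAi, against 2.64, 3.32 and 1.68 in control. The 3 high-sugar controls stood above the 9 other libraries, and at these low values the fold depends on the pseudocount of 1 (interaction -3.71 ± 0.58 on the log2(value + 1) scale, limma adjusted p = 0.0186). It was the 1 call with a mean value under 20. Among the 15 genes of the RNA interference list, none had an interaction at an unadjusted p under 0.05, and Dcr-2, which every larva overexpressed from UAS-Dcr2, had an interaction of 0.09 ± 0.34 (95% interval -0.65 to 0.82).

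The remaining 6 calls are known here by their identifiers. CG8665 had the largest deficit. On high sugar CG8665 read 42.6, 53.8 and 18.98 in the libraries labelled svp RNAi, against 503, 612 and 629 in control. For CG8665 the control-diet values were 287, 201 and 246 in the libraries labelled svp RNAi, against 416, 319 and 497 in control. The high-sugar libraries labelled svp RNAi were 16-fold below their controls, and the 1.67-fold deficit on the control diet missed the threshold though the groups did not overlap (interaction -3.26 ± 0.41, limma adjusted p = 0.00393). CG8389 read 70.8, 85.6 and 74.2 in the libraries labelled svp RNAi, against 309, 274 and 287 in control on high sugar. In control-diet larvae CG8389 read 282, 162 and 224 in the libraries labelled svp RNAi, against 212, 176 and 187 in control. It was 3.74-fold lower on high sugar in all 3 libraries labelled svp RNAi and overlapped on the control diet (interaction -2.09 ± 0.25, limma adjusted p = 0.00393). CG1208 read 4.71, 5.77 and 5.104 in the libraries labelled svp RNAi, against 59.7, 60.5 and 39.1 in control on high sugar. Its control-diet values were 13.8, 10.8 and 14.96 in the libraries labelled svp RNAi, against 26.8, 20.1 and 11.4 in control. The high-sugar groups lay 8.6-fold apart with the control-diet libraries between them (interaction -2.64 ± 0.43, limma adjusted p = 0.022).

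CG6839 was the mirror image of CG1208 and had the largest interaction of all calls. On high sugar CG6839 read 98.6, 52.5 and 46.4 in the libraries labelled svp RNAi, against 5.28, 3.91 and 1.05 in control. CG6839 read 19.7, 16.7 and 21.6 in the libraries labelled svp RNAi, against 19.2, 20.2 and 39.7 in control, when larvae ate the control diet. The high-sugar libraries labelled svp RNAi were highest and the high-sugar controls lowest, 15.9-fold apart, with all 6 control-diet libraries between them (interaction 4.35 ± 0.59, limma adjusted p = 0.00554). The high-sugar controls of CG6839 were near the bottom of the measured range, so the size of its interaction depends on the pseudocount of 1. CG15553 differed on the control diet. On high sugar CG15553 read 253, 155 and 191 in the libraries labelled svp RNAi, against 209.5, 253 and 311 in control. With the control diet the values were 218, 137 and 173 in the libraries labelled svp RNAi, against 43.6, 23.7 and 32.7 in control. The control-diet controls stood 5.21-fold below the libraries labelled svp RNAi of that diet, and the 9 libraries of the other groups lay between 137 and 311 (interaction -2.76 ± 0.34, limma adjusted p = 0.00393). CG33080 was the 1 gene of the 18 called for genotype on both diets with opposite directions. On high sugar CG33080 read 116, 129.7 and 120.3 in the libraries labelled svp RNAi, against 256, 174 and 172 in control. Control-diet libraries gave CG33080 values of 235, 221 and 194 in the libraries labelled svp RNAi, against 145, 147 and 147 in control. It was 1.61-fold lower on high sugar (adjusted p = 0.0079) and 1.47-fold higher on the control diet (adjusted p = 0.0365), an interaction of -1.25 ± 0.22 (limma adjusted p = 0.0366).

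**Figure D2:**
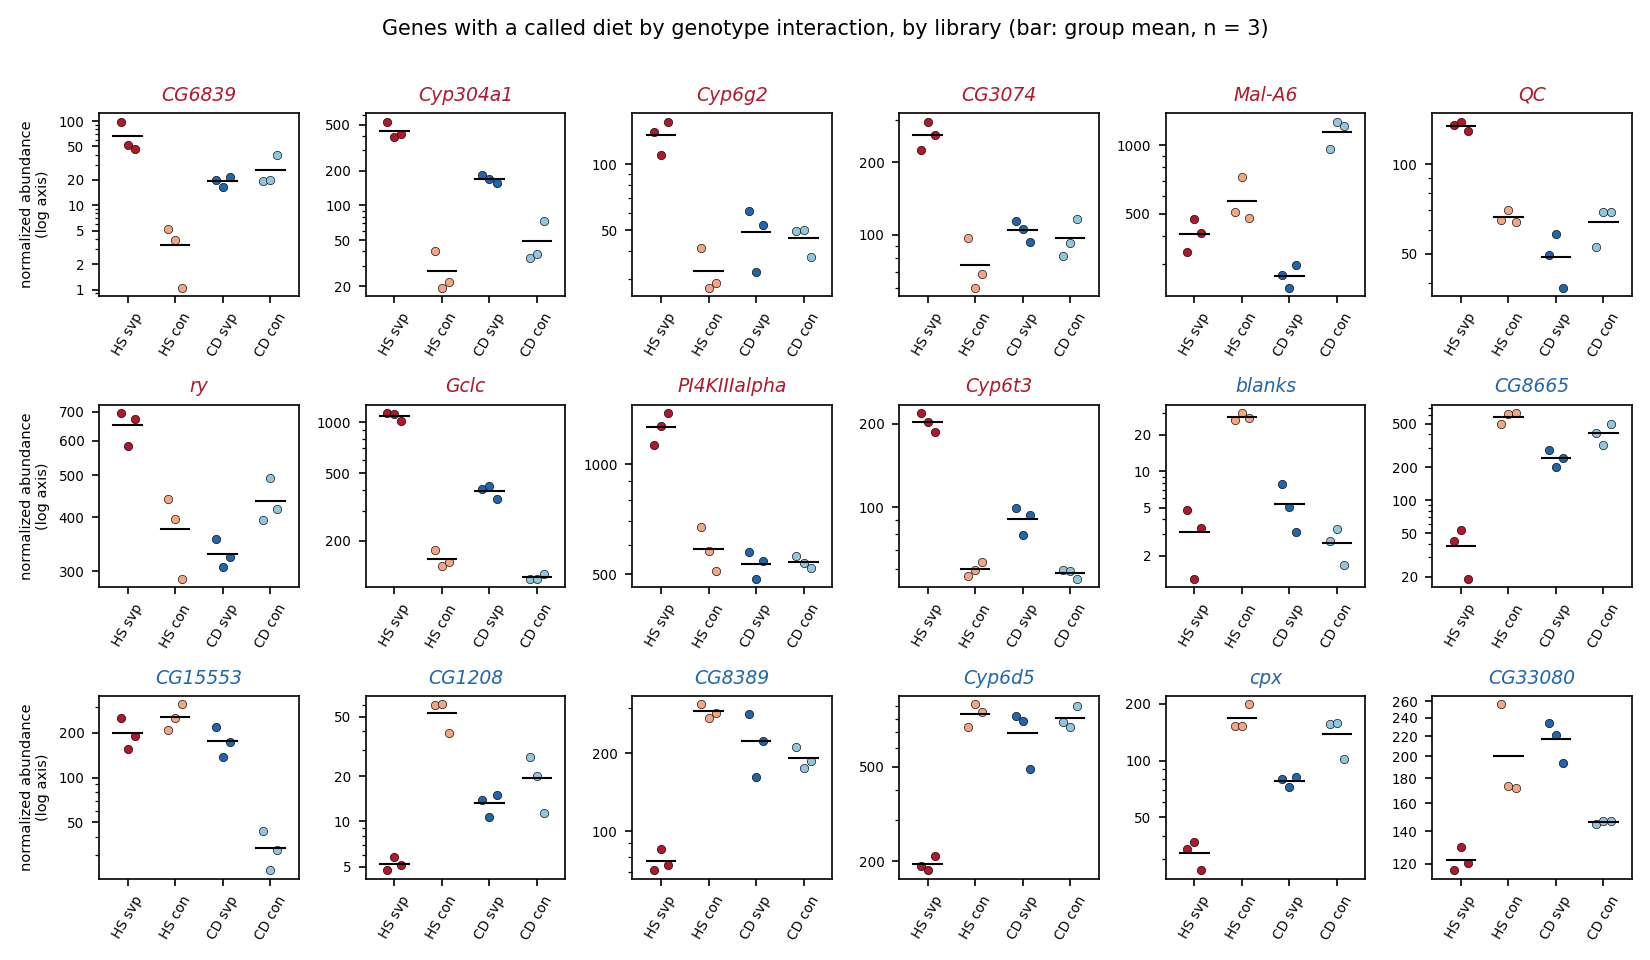
Deposited normalized value of the 18 interaction genes in each library, on log axes, for high-sugar libraries labelled svp RNAi, high-sugar controls, control-diet libraries labelled svp RNAi and control-diet controls, with bars at the group means; red titles mark positive and blue titles negative interactions. In Gclc and PI4KIIIalpha the high-sugar libraries labelled svp RNAi stand above the other 3 groups, in Cyp6d5 and CG8665 below them, and in blanks the high-sugar controls stand apart.

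The number of calls depended on single libraries. The interaction changed direction in none of these 18 genes, but they were picked for large interactions in the same libraries, so this is not independent support. CG8389, CG15553, CG8665, Cyp6d5 and CG6839 passed the threshold whichever of the 12 libraries was left out. Gclc passed it in 9 of the 12, Mal-A6 in 8, and blanks, PI4KIIIalpha, CG3074 and CG1208 in 7. Cyp6g2 passed in 5, CG33080, QC, ry and cpx in 3, Cyp304a1 in 2 and Cyp6t3 in 1. The calls lost were 12 without replicate 3 of the high-sugar libraries labelled svp RNAi, 12 without replicate 2 and 12 without replicate 3 of the high-sugar controls, 11 without replicate 2 of the control-diet controls and 10 without replicate 2 of the control-diet libraries labelled svp RNAi. Leaving out any of the other 7 libraries lost 2 to 9 calls.

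The same 18 genes can be read as a diet response that differed between the genotypes. The deposited values differed between the diets by a median of 0.10 on the log2 scale over all genes, so diet differences were computed after rescaling every library by the median of ratios, which brought that median to -0.01. High sugar against control diet then called 813 genes (8.68%) in libraries labelled svp RNAi, 449 higher (4.79%) and 364 lower (3.89%). In controls it called 173 genes (1.85%), 115 higher (1.23%) and 58 lower (0.619%). On the values as deposited the split was 1004 higher and 279 lower in libraries labelled svp RNAi, and 260 higher and 47 lower in controls. Of the genes called in libraries labelled svp RNAi, 99 (12.2%) were called in the same direction in controls, which is 57.2% of the control calls, and 712 were called in libraries labelled svp RNAi alone. Of those 712, 13 had an interaction past the threshold.

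Those 13 were CG8389, CG8665, Cyp6d5, Gclc, PI4KIIIalpha, CG3074, CG33080, Cyp6g2, QC, ry, cpx, Cyp6t3 and Cyp304a1. The diet difference of Gclc was 1.36 ± 0.12 on the log2 scale in libraries labelled svp RNAi and 0.23 ± 0.12 in controls (± SE). For CG8665 it was -2.85 ± 0.29 in libraries labelled svp RNAi and 0.40 ± 0.29 in controls. In 3 genes the diet difference was called in controls alone. In libraries labelled svp RNAi the log2 diet difference was 0.07 ± 0.24 for CG15553, -0.73 ± 0.41 for blanks and 0.49 ± 0.17 for Mal-A6, all short of the threshold. In controls it was 2.82 ± 0.24 for CG15553, 2.97 ± 0.41 for blanks and -1.14 ± 0.17 for Mal-A6. In CG6839 and CG1208 the diet was called in both genotypes with opposite directions. CG6839 was 2.9-fold higher on high sugar in libraries labelled svp RNAi and 6.97-fold lower in controls. CG1208 was 2.43-fold lower on high sugar in libraries labelled svp RNAi and 2.53-fold higher in controls.

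**Figure D3:**
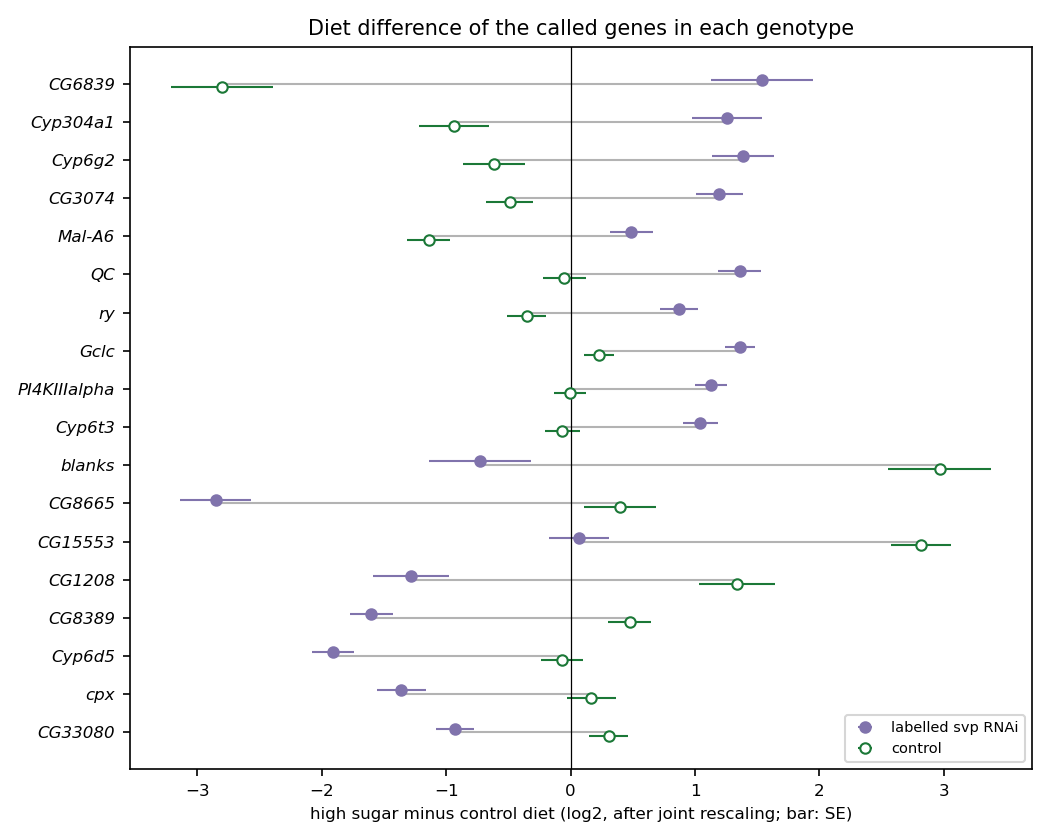
Diet difference (log2, high sugar minus control diet, after rescaling; bars ± SE) of the 18 interaction genes in libraries labelled svp RNAi (filled) and in controls (open). In 13 genes the difference passed the threshold in libraries labelled svp RNAi alone, and in CG6839 and CG1208 it passed in both genotypes, in opposite directions. In some other genes, such as CG8389, the genotypes also lie on opposite sides of 0 without both passing.

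Beyond single genes, 37 gene lists of fat body pathways were described by their counts. The subunits of the proteasome, the protease that degrades ubiquitin-tagged proteins, had the most uniform values. All 31 measured subunits had an interaction below 0, with a median of -0.48 on the log2 scale, beside -0.01 and 4608 of 9367 genes above 0 overall. None was past the adjusted threshold, and 20 had a negative interaction at an unadjusted p under 0.05, beside 5.80% of all genes. Pros26, a beta subunit of the core particle, read 529.6, 664 and 555 in the libraries labelled svp RNAi, against 573, 711 and 715 in control on high sugar. Under control diet it read 689, 637 and 531 in the libraries labelled svp RNAi, against 409.9, 405 and 427 in control. The genotypes overlapped on high sugar, and on the control diet the libraries labelled svp RNAi were above control (interaction -0.76 ± 0.19, limma adjusted p = 0.163). The genotype contrast called 8 subunits higher on the control diet and 1, Prosbeta7, lower on high sugar, and the median genotype difference was -0.14 on high sugar and 0.32 on the control diet. Of all genes 4.27% were called higher on the control diet and 6.22% lower on high sugar. With 1 library left out, 18 to 23 subunits had a negative interaction at an unadjusted p under 0.05.

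DNA replication and cell cycle genes leaned the other way. Larval fat body cells do not divide but replicate their DNA repeatedly. Of 29 measured genes, 20 had an interaction above 0 with a median of 0.33, and 10 had a positive and none a negative interaction at an unadjusted p under 0.05, beside 6.0% and 5.80% of all genes. None was past the adjusted threshold. The genotype contrast called 10 of the 29 higher and none lower on high sugar, and 1 higher and 1 lower on the control diet. Among all genes the shares were 7.17% and 6.22% on high sugar, and 4.27% and 4.29% on the control diet. Mcm2, a subunit of the helicase that opens replication origins, read 156, 139 and 141 in the libraries labelled svp RNAi, against 71.6, 82 and 80.1 in control on high sugar. For Mcm2 the control-diet values were 84.8, 89.9 and 96.7 in the libraries labelled svp RNAi, against 72.3, 73.7 and 102 in control. The 3 high-sugar libraries labelled svp RNAi were above the 9 others (interaction 0.75 ± 0.22, limma adjusted p = 0.238). Mcm3, Mcm6 and Mcm7 of the same helicase, Orc1 of the origin recognition complex, CDC45L, the 2 subunits of ribonucleotide reductase (RnrS and RnrL), DNApol-alpha180 and cdc2c made up the other 9. The count fell to 5 without replicate 1 of the high-sugar libraries labelled svp RNAi, without replicate 3 of the high-sugar controls or without replicate 1 of the control-diet libraries labelled svp RNAi. The 8 imaginal disc markers, genes of dividing tissue, summed to 875 to 952 in high-sugar libraries labelled svp RNAi and 704 to 851 in high-sugar controls. Their control-diet sums were 619 to 727 in libraries labelled svp RNAi and 525 to 769.7 in controls. None of the 8 was at 0, none was called in either genotype contrast, and their part in the replication genes was not tested.

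**Figure D4:**
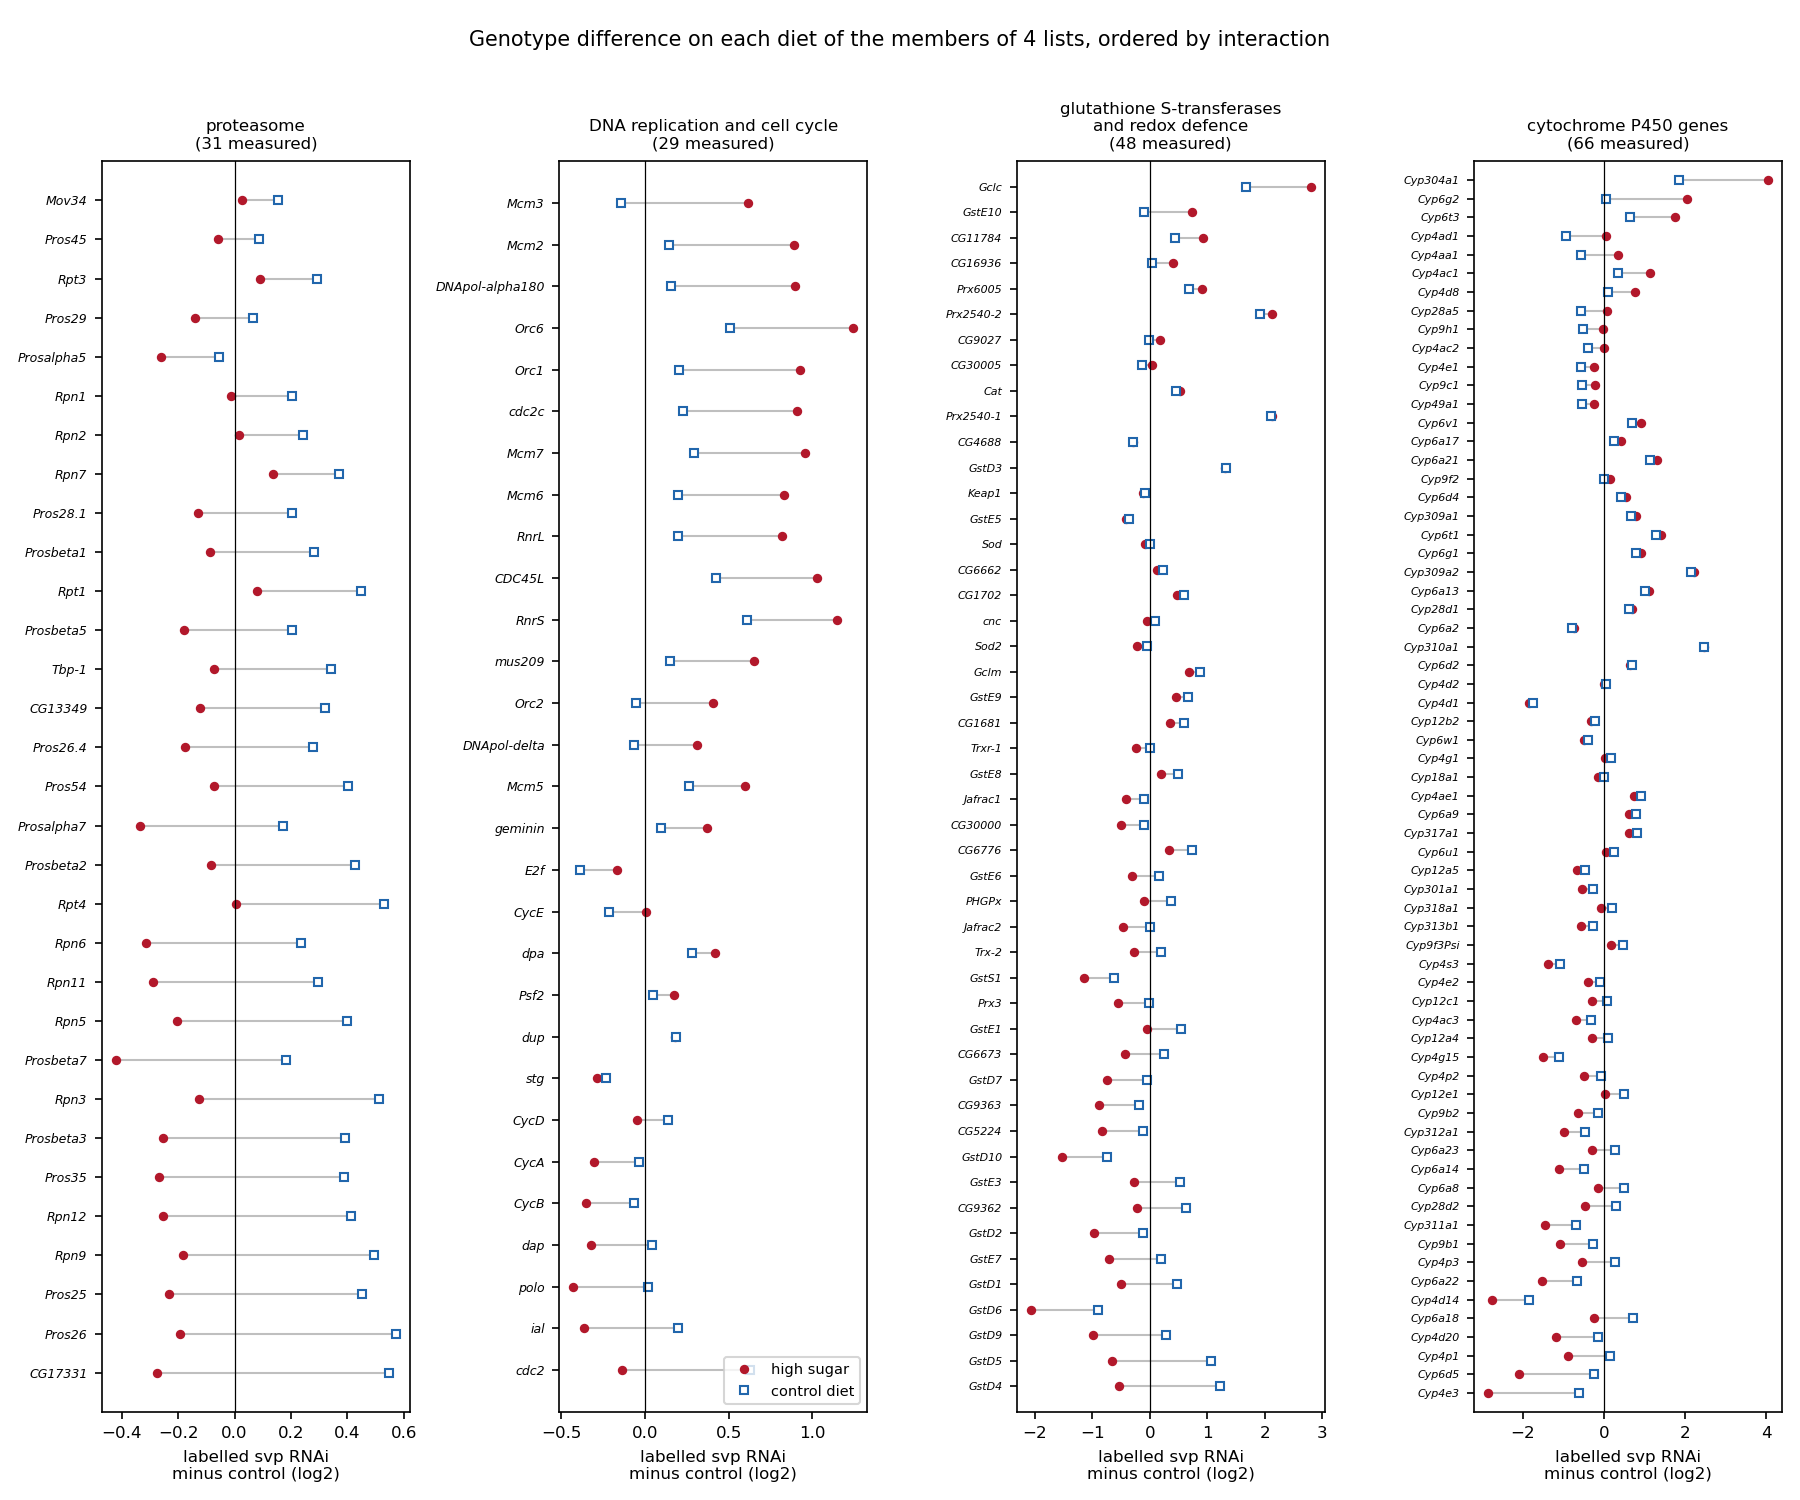
Genotype difference (log2, libraries labelled svp RNAi minus control, x axis) of each measured list member, with genes ordered by interaction in each panel. The lists are the proteasome, DNA replication and cell cycle, glutathione and redox, and cytochrome P450 genes. Filled circles mark high sugar and open squares the control diet. In all 31 proteasome subunits the circle lies left of the square, and among P450 genes it lies on either side.

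The 2 sets of ribosomal proteins leaned in different directions. Of 82 cytosolic ribosomal protein genes, 69 had an interaction above 0 with a median of 0.26, and 10 had a positive and 1 a negative interaction at an unadjusted p under 0.05. Over all genes 6.0% had a positive and 5.80% a negative one. The count of positive members ran from 1 to 33 when 1 library was left out, so it rested on single libraries. Of 72 mitochondrial ribosomal protein genes, 18 had an interaction above 0 with a median of -0.21, and 7 had a negative and none a positive interaction at an unadjusted p under 0.05.  The same shares of all genes, 5.80% and 6.0%, apply here. mRpL20 read 18.04, 10.6 and 10.96 in the libraries labelled svp RNAi, against 23.6, 33.2 and 26.7 in control on high sugar. In control-diet larvae mRpL20 read 19.7, 31.2 and 31.6 in the libraries labelled svp RNAi, against 21.3, 17.9 and 19.3 in control. Its groups were apart on high sugar and overlapped on the control diet (interaction -1.5 ± 0.38, limma adjusted p = 0.173). The genes of the mitochondrial genome itself made up 1.31 ± 0.90% of the summed value in high-sugar libraries labelled svp RNAi and 3.33 ± 1.48% in high-sugar controls. Their share on the control diet was 3.64 ± 1.81% in libraries labelled svp RNAi and 3.87 ± 0.57% in controls (SD, n = 3 each).

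No gene of lipogenesis and fat storage passed the interaction threshold. Of 19 measured genes of lipogenesis and fat storage, the diet contrast called 11 higher on high sugar and none lower in libraries labelled svp RNAi, and 4 higher and none lower in controls. Over all genes the diet contrast called 4.79% higher in libraries labelled svp RNAi and 1.23% higher in controls, so controls had fewer calls in general, and the difference between the counts of 11 and 4 was not tested. Seipin, Lsd-1 and SCAP had a positive interaction at an unadjusted p under 0.05, and none of the 19 a negative one. The shares of all genes were 6.0% and 5.80%. Seipin, which shapes lipid droplets at the endoplasmic reticulum, read 161, 139 and 167 in the libraries labelled svp RNAi, against 111, 82.9 and 99.6 in control on high sugar. Its control-diet values were 58.2, 57.1 and 57.8 in the libraries labelled svp RNAi, against 66.2, 68.1 and 78.1 in control. It was above control on high sugar and below it on the control diet, without overlap on either (interaction 0.96 ± 0.21, limma adjusted p = 0.0971). Lsd-1, the perilipin that coats lipid droplets and admits lipases, read 5575, 4690.4 and 5558 in the libraries labelled svp RNAi, against 4483, 5773 and 5445 in control on high sugar. Lsd-1 read 1888, 1919 and 1491 in the libraries labelled svp RNAi, against 2882, 2956 and 2598 in control, when larvae ate the control diet. The genotypes overlapped on high sugar, while on the control diet the libraries labelled svp RNAi were lower (interaction 0.69 ± 0.20, limma adjusted p = 0.233). Lsd-1 was chosen after its values were seen.

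Glucose storage and signalling lists gave few members with an interaction. Of 13 genes of gluconeogenesis, glycogen and trehalose metabolism, CG9485 and the trehalose transporter Tret1-1 had a positive interaction at an unadjusted p under 0.05, beside 6.0% of all genes. CG9485 averaged 1373 ± 63.1 in the group labelled svp RNAi and 833 ± 57.3 in control on high sugar, and 795 ± 68.7 in the group labelled svp RNAi and 744 ± 73.4 in control on the control diet (SD, n = 3 each; interaction 0.62 ± 0.16, limma adjusted p = 0.184). The contrast of genotypes called 6 of the 13 lower and none higher on the control diet, and 5 lower and 3 higher on high sugar. Of all genes it called 4.29% lower and 4.27% higher on the control diet, and 6.22% and 7.17% on high sugar. Among 18 genes of insulin and FOXO signalling, 1 had a positive and none a negative interaction at an unadjusted p under 0.05. This was close to the 6.0% and 5.80% of all genes. InR, the insulin receptor, averaged 293 ± 7.2 in the group labelled svp RNAi and 279 ± 36.9 in control on high sugar, and 273 ± 18.9 in the group labelled svp RNAi and 285 ± 30.6 in control on the control diet. Its interaction was 0.14 ± 0.18, with a 95% interval of -0.25 to 0.52. Sesn (sestrin), an inhibitor of TOR, averaged 1420 ± 150.4 in the group labelled svp RNAi and 584 ± 85.6 in control on high sugar, and 814 ± 166 in the group labelled svp RNAi and 493 ± 37.7 in control on the control diet (interaction 0.58 ± 0.23, limma adjusted p = 0.34).

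The metal handling, autophagy and antimicrobial peptide lists had no member past the interaction threshold. MtnA, a metallothionein that binds copper, read 3952, 2275 and 2359 in the libraries labelled svp RNAi, against 744, 1034 and 1530.3 in control on high sugar. With the control diet the values were 2816, 3524 and 3619 in the libraries labelled svp RNAi, against 2620.3, 2593 and 2669 in control. The high-sugar controls were below every other library (interaction 1.06 ± 0.34, limma adjusted p = 0.266). It was 1 of 3 of the 14 metal-handling genes, with Tsf3 and the copper transporter Ctr1B, that had a positive interaction at an unadjusted p under 0.05. Cp1, a lysosomal cathepsin L, averaged 2548 ± 254 in the group labelled svp RNAi and 3027 ± 99.1 in control on high sugar, and 2477 ± 418 in the group labelled svp RNAi and 1719 ± 253 in control on the control diet (interaction -0.78 ± 0.20, limma adjusted p = 0.187), and 3 of 25 autophagy and lysosome genes were negative at an unadjusted p under 0.05. AttA, an antibacterial attacin, read 564, 386 and 711 in the libraries labelled svp RNAi, against 82.3, 85.9 and 109.8 in control on high sugar. Control-diet libraries gave AttA values of 4036, 1464 and 1580.4 in the libraries labelled svp RNAi, against 323, 55.4 and 53.6 in control. It was higher in libraries labelled svp RNAi on both diets, and its spread left an interaction of -1.87 ± 0.77 short of the threshold (limma adjusted p = 0.375). It was the 1 of 8 antimicrobial peptide genes with an unadjusted p under 0.05. Over all genes 6.0% had a positive and 5.80% a negative interaction at that p, beside the counts of each of these lists.

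In 21 other pathway lists no member passed the interaction threshold. The members with the smallest p had the values below, which do not stand for the direction of their lists. The redox enzyme Eip71CD, a methionine sulfoxide reductase on the ecdysone response list, averaged 1550 ± 43.7 in the group labelled svp RNAi and 1236 ± 107 in control on high sugar, and 2267 ± 416 in the group labelled svp RNAi and 995 ± 132 in control on the control diet, an interaction of -0.85 ± 0.20 (limma adjusted p = 0.145). The interaction was -0.95 ± 0.43 for the storage protein Lsp1gamma, 0.58 ± 0.21 for the carnitine palmitoyltransferase whd, 0.55 ± 0.21 for pyruvate kinase (PyK) and 1.01 ± 0.31 for the sorbitol dehydrogenase Sodh-1. It was -0.62 ± 0.22 for phenylalanine hydroxylase (Hn), -1.25 ± 0.35 for the endoplasmic reticulum stress factor Atf6, 0.37 ± 0.19 for the chaperone Hsc70-4 and 0.35 ± 0.15 for the nuclear receptor usp. It was 0.43 ± 0.20 for the activin ligand daw (dawdle), 0.79 ± 0.31 for the peptidoglycan recognition protein PGRP-LA, -2.31 ± 0.62 for the odorant-binding protein gene Obp56e and 0.40 ± 0.23 for the basement membrane protein nidogen (Ndg). For CG8801, the nucleolar GTPase gene Non1, it was 0.80 ± 0.20, for Ef1alpha100E, a translation elongation factor, -1.12 ± 0.33, and for CG11015, the cytochrome c oxidase subunit gene COX5B, -0.42 ± 0.18. It was 0.38 ± 0.17 for CG5261 on the tricarboxylic acid cycle list, -1.68 ± 0.41 for CG6296 on the lipase list, -0.73 ± 0.28 for the serpin Spn6, -3.1 ± 1.5 for the bomanin CG15067 and -1.35 ± 0.59 for os on the JAK/STAT list. The smallest limma adjusted p among these 21 genes was 0.145. Some of these genes ran against most of their list. The interaction was below 0 in 22 of 25 nucleolar and 14 of 21 fatty acid oxidation genes. It was above 0 in 7 of 9 bomanins and related peptides, 8 of 12 odorant-binding and 6 of 9 Turandot and JAK/STAT genes. The same held for 15 of 22 endoplasmic reticulum, 43 of 66 translation and 12 of 21 one-carbon genes.

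**Figure D5:**
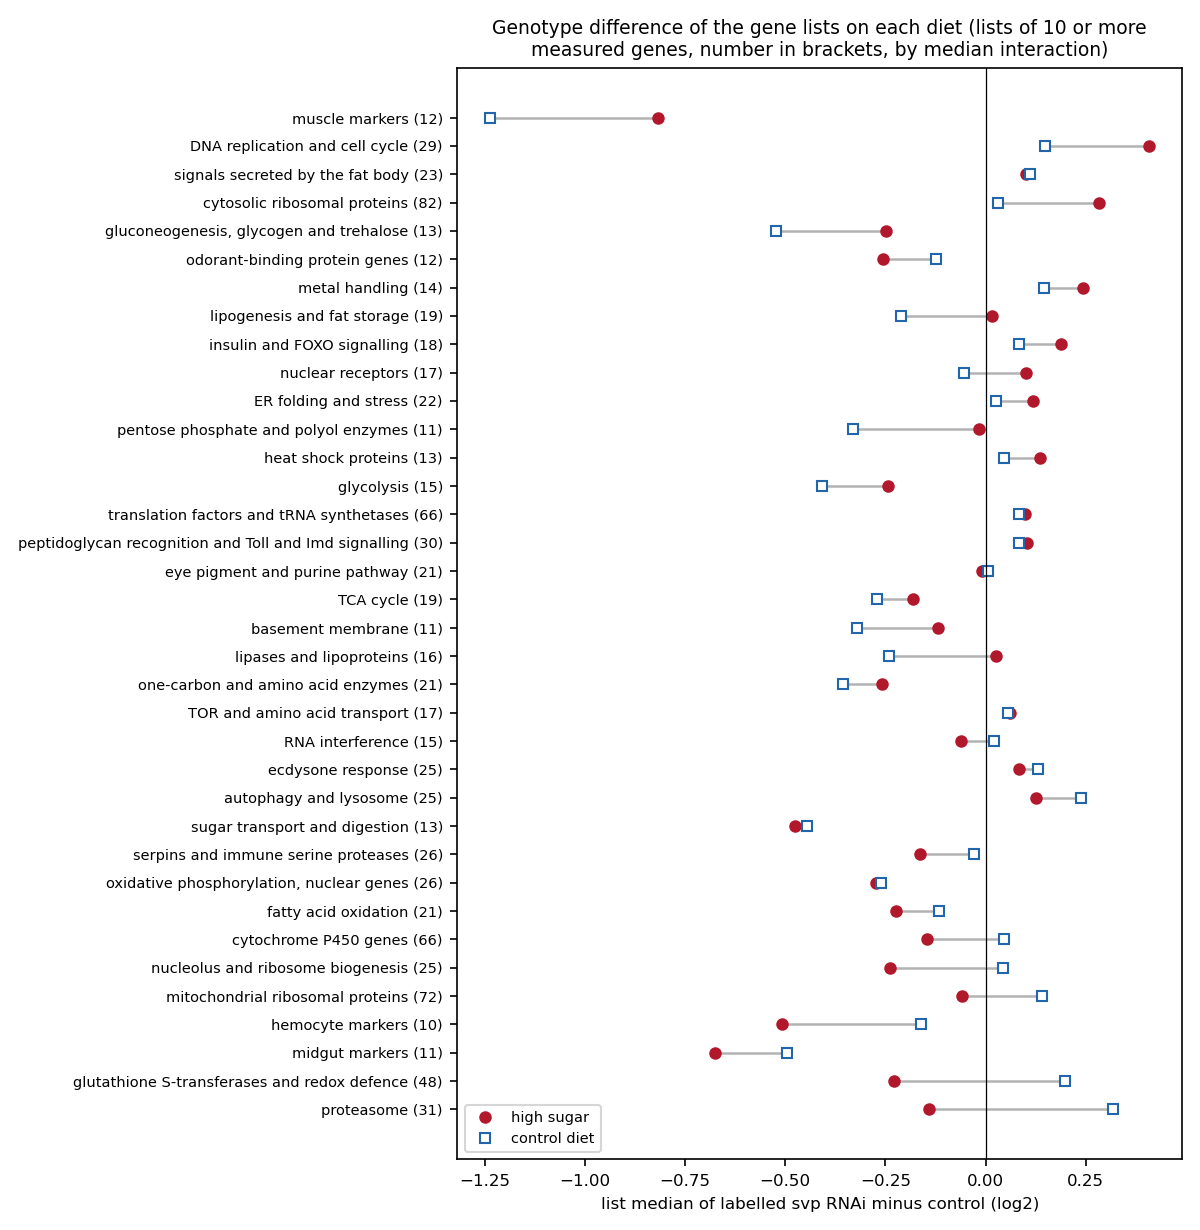
Median genotype difference (log2, libraries labelled svp RNAi minus control) of each gene list with at least 10 measured members on high sugar (filled circles) and on the control diet (open squares). The proteasome has a median of -0.14 on high sugar and 0.32 on the control diet, and the muscle markers are below 0 on both diets.

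Muscle markers and some fat body and hemocyte markers moved with genotype, and in bulk tissue fewer cells of a type and less RNA per cell cannot be told apart. Of 8 fat body markers, 4 were called lower and none higher on high sugar, and 4 lower and none higher on the control diet. Their median genotype difference was -0.87 on high sugar and -0.83 on the control diet. No imaginal disc, Malpighian tubule, trachea, gonad or oenocyte marker was called in either genotype contrast. Of 11 midgut markers, 1 was called higher and 2 lower on high sugar and none on the control diet. Of 7 salivary gland markers, 1 was called, lower on the control diet. Of 6 cuticle markers, 2 were called lower on high sugar and 1 on the control diet. The 12 muscle markers summed to 13150 to 16250 in high-sugar libraries labelled svp RNAi and 22250 to 32690 in high-sugar controls. Their sums on the control diet were 10710 to 16340 in libraries labelled svp RNAi and 25870 to 36840 in controls. The genotype contrast called 7 of the 12 lower on high sugar and all 12 lower on the control diet, beside 6.22% and 4.29% of all genes. Of these 12, 11 had an interaction above 0 with a median of 0.44, and 2 had a positive one at an unadjusted p under 0.05. Over all genes 6.0% had a positive one at that p. The troponin T gene up averaged 1027 ± 191 in the group labelled svp RNAi and 1809 ± 369 in control on high sugar, and 1008 ± 102 in the group labelled svp RNAi and 2890 ± 373 in control on the control diet (interaction 0.70 ± 0.24, limma adjusted p = 0.288). The 10 hemocyte markers summed to 3731 to 4520 in high-sugar libraries labelled svp RNAi and 6106 to 7412 in high-sugar controls. Control-diet sums were 5600 to 6626 in libraries labelled svp RNAi and 7233 to 9850 in controls. Of these 10, 4 had an interaction above 0 and 6 below, with a median of -0.21, and 2 had a negative and none a positive one at an unadjusted p under 0.05. The shares of all genes were 5.80% and 6.0%. The genotype contrast called 1 higher and 4 lower on high sugar, and 1 higher and 2 lower on the control diet. Of all genes it called 7.17% higher and 6.22% lower on high sugar, and 4.27% and 4.29% on the control diet. The prophenoloxidase gene proPO-A1, active in crystal cells, read 101, 190.1 and 97.6 in the libraries labelled svp RNAi, against 386, 548 and 783 in control on high sugar. Under control diet it read 762, 835 and 562 in the libraries labelled svp RNAi, against 666, 635 and 1441 in control. The 3 high-sugar libraries labelled svp RNAi were below the 9 others (interaction -1.89 ± 0.47, limma adjusted p = 0.159). No marker of muscle or hemocytes was at 0 in any library, none was past the interaction threshold, and their part in the 18 calls was not tested.

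Other genes were called for genotype in the same direction on both diets and had no interaction call, 244 higher and 232 lower among those with a mean value of at least 20. Ranked within these by the mean of the 2 genotype differences, the 4 largest on the higher side included bw (brown), an ABC transporter subunit for eye pigment precursors, which read 3464, 3430.1 and 3673 in the libraries labelled svp RNAi, against 83.99, 57.6 and 31.97 in control on high sugar. For bw the control-diet values were 3201, 2313 and 2358 in the libraries labelled svp RNAi, against 43.6, 108 and 91.2 in control. It was 64.3-fold higher on high sugar and 33.9-fold higher on the control diet, and the 95% interval of its interaction ran from -0.05 to 1.9. The antimicrobial peptide genes Mtk (metchnikowin) and Dro (drosocin) were 19-fold and 19.6-fold higher on high sugar, and 32.6-fold and 22.6-fold higher on the control diet. Their interaction intervals ran from -2.3 to 0.75 for Mtk and from -1.95 to 1.55 for Dro. CG30181, now named ppk3, a gene of the pickpocket sodium channel family, averaged 117 ± 4.896 in the group labelled svp RNAi and 3.76 ± 0.736 in control on high sugar, and 105 ± 22.6 in the group labelled svp RNAi and 3.78 ± 2.51 in control on the control diet (SD, n = 3 each; interval -0.91 to 1.04).

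By the same ranking the 4 largest deficits were in CG34291, CG32667, CG14528 and CG6385. CG34291 was 21.9-fold lower on high sugar and 19.3-fold lower on the control diet, with an interaction interval of -2.25 to 1.89. CG32667 was 18.5-fold lower on high sugar and 15-fold lower on the control diet, with an interval of -2.6 to 2.0. CG14528, a neprilysin-like gene now named Nepl18, was 14.5-fold lower on high sugar and 20.2-fold lower on the control diet, with an interval of -0.96 to 1.92. CG6385, the sarcosine dehydrogenase gene Sardh, read 33.5, 250.5 and 43.3 in the libraries labelled svp RNAi, against 881, 662 and 819.7 in control on high sugar. In control-diet larvae CG6385 read 26.6, 42.6 and 85.4 in the libraries labelled svp RNAi, against 942, 1247 and 1323 in control. It was lower without overlap on both diets, and 1 high-sugar library labelled svp RNAi, replicate 2, was several times above its fellows, so the interval of its interaction was wide (-0.50 to 2.89). An interaction as large as 1 log2 unit lay within the interval for each of these 4.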

How the data were processed

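The submitters' processing notes name Bowtie 0.12.7, TopHat 1.3.2, edgeR, Cufflinks 1.1.0 and the genome build dm3 for the deposited values. What each tool did, and the annotation, strand setting and filter, is not given in the sources used here. Per the labels' protocols, RNA was freed of ribosomal RNA with RiboZero before Illumina sequencing. The deposited values are a normalized signal per gene, read-like and without zeros, which from the values look adjusted separately within each diet. Library depth is not given, so no counting interval was computed, and no count model was used.

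Gene names were matched to an annotation of a later build for current symbols only (7013 current, 2230 synonyms, 88 ambiguous, 36 unmatched), and no coordinates were used. limma 3.58.1 in R 4.3.3 was run on log2(value + 1) with an intensity trend and 4 group means over 12 libraries; contrasts gave the interaction, the genotype difference on each diet and the diet difference in each genotype. p-values were adjusted by the Benjamini-Hochberg method over 9367 genes and called under 0.05. Diet contrasts used values rescaled by the median of ratios. The procedure was tested on simulated data with noise drawn independently for each gene and library, so that test does not cover effects shared by a whole library. Folds are on the log2(value + 1) scale and understate changes of low genes.

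Genes were named by a rule: svp, the 12 largest calls in each direction with a mean of at least 20, the called members of each list (at most 4) or else, for some lists, the one with the smallest p, calls with opposite genotype contrasts, the 4 largest shared genotype differences each way, and calls whose diet contrast marked 1 genotype. The members, the 49 lists and the tests were chosen with earlier results of these data known, so a list's direction is not independent evidence.

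Alternatives were other pseudocounts (0.5 and 5), filters (a mean of at least 10 or 50), no or robust trend, array weights, quantile normalization, rescaled or deposited values, a replicate block, voom weights (added after seeing the data) and leaving out each library.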

Additional observations from a re-analysis of the deposited data

Results flagged for a closer look

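Each of the 18 genes below had a genotype difference that was not the same on the high-sugar and the control diet by the interaction test itself, in limma over 9367 genes at an adjusted p under 0.05. The interaction (log2, high-sugar difference minus control-diet difference, libraries labelled svp RNAi minus control) was positive in 10. It was 4.35 for CG6839, 2.18 for Cyp304a1, 1.99 for Cyp6g2, 1.68 for CG3074, 1.62 for Mal-A6, 1.40 for QC, 1.22 for ry, 1.12 for Gclc, 1.12 for PI4KIIIalpha and 1.1 for Cyp6t3. It was negative in 8. It was -3.71 for blanks, -3.26 for CG8665, -2.76 for CG15553, -2.64 for CG1208, -2.09 for CG8389, -1.85 for Cyp6d5, -1.54 for cpx and -1.25 for CG33080. With 3 libraries in a group, no test for outlying samples was run within a group. When each library was left out in turn, 5 of the 18 calls held every time.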

How the results depend on the processing

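The 18 interaction calls became 28 with a pseudocount of 5, 10 without the intensity trend, 34 with a robust trend and 46 with array quality weights. Under the other settings with all libraries, 18 to 25 were called. Of the 10 called without the trend, 7 were among the 18, while the pseudocount of 5, the robust trend and the array weights kept all 18. Only 6 of the 18 genes were called under every setting with all libraries in which they were tested. Leaving out 1 library gave 6 to 30 calls. There were 6 without replicate 3 of the high-sugar libraries labelled svp RNAi or without replicate 2 or 3 of the high-sugar controls, and 7 without replicate 2 of the control-diet controls. There were 8 and 10 without replicates 2 and 1 of the control-diet libraries labelled svp RNAi and 9 without replicate 1 of the high-sugar libraries labelled svp RNAi. There were 28 without replicate 1 of the high-sugar controls and 30 without replicate 3 of the control-diet libraries labelled svp RNAi. The genotype calls ran from 785 to 1355 on high sugar, with 785 without replicate 3 of the libraries labelled svp RNAi and 806 without replicate 3 of the controls, and from 562 to 872 on the control diet. Without the intensity trend the diet contrast called 491 genes in libraries labelled svp RNAi and 104 in controls, and on deposited values 1283 and 307. When 1 library was left out, these ran from 286 (replicate 3 of the high-sugar libraries labelled svp RNAi) to 891 in libraries labelled svp RNAi, and from 103 (replicate 3 of the high-sugar controls) to 240 in controls. At an adjusted p under 0.1 the 4 patterns held 25 genes (genotype called on high sugar), 5 (control diet), 10 (both, same direction) and 5 (both, opposite). No interaction of a named gene changed its sign while called, which refits of the same libraries could hardly have shown otherwise. The cause of these shifts was not tested.

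Replicate numbers were shared between groups. Correlations of the deviations of same-numbered libraries ran from -0.239 to 0.19 with a median of 0.007. Those of libraries with different numbers ran from -0.214 to 0.253 with a median of -0.006. With 3 libraries in a group, these correlations cannot decide whether a number marks a shared collection or batch. With a replicate block the interaction gave 25 calls, 16 of them among the 18, and with the block nested in diet it gave 19, of which 9 were among the 18. Depth is not known for these values. For genes with values near 1, such as blanks and the high-sugar controls of CG6839, the pseudocount limits the fold.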

Other observations

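A further 27 genes had an interaction at an adjusted p under 0.1 and not under 0.05, 18 positive and 9 negative, none of them called. Those described here were chosen after their values were seen. Cyt-b5-r, a cytochrome b5-related protein of fat body and muscle, averaged 2445 ± 504 in the group labelled svp RNAi and 795 ± 141 in control on high sugar, and 889 ± 86.1 in the group labelled svp RNAi and 696 ± 81.5 in control on the control diet (SD, n = 3 each; interaction 1.26 ± 0.24, limma adjusted p = 0.0501). The DNA replication and repair gene mus101 averaged 119 ± 6.55 in the group labelled svp RNAi and 64.8 ± 2.401 in control on high sugar, and 64.4 ± 3.34 in the group labelled svp RNAi and 70.5 ± 1.76 in control on the control diet (interaction 1.0 ± 0.19, limma adjusted p = 0.0501). The timeless paralog timeout averaged 88.2 ± 9.998 in the group labelled svp RNAi and 34.6 ± 8.39 in control on high sugar, and 38.6 ± 4.08 in the group labelled svp RNAi and 40.02 ± 4.93 in control on the control diet (interaction 1.39 ± 0.28, limma adjusted p = 0.0622). In all 3 genes the high-sugar libraries labelled svp RNAi formed the highest group.

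Lipid genes stood on both sides. CDase, the neutral ceramidase that splits ceramide, averaged 149 ± 27.5 in the group labelled svp RNAi and 108 ± 15.6 in control on high sugar, and 323 ± 23.4 in the group labelled svp RNAi and 108 ± 5.64 in control on the control diet (interaction -1.12 ± 0.22, limma adjusted p = 0.0501). The acyl-CoA synthetase gene bgm (bubblegum) averaged 52.5 ± 13.4 in the group labelled svp RNAi and 39.5 ± 2.35 in control on high sugar, and 27.9 ± 8.54 in the group labelled svp RNAi and 71.2 ± 16.6 in control on the control diet (interaction 1.71 ± 0.35, limma adjusted p = 0.0682). For CDase the control-diet libraries labelled svp RNAi stood apart, and for bgm the genotypes were in opposite order on the diets.

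The steroid hydroxylase gene sad (shadow), which acts in ecdysone synthesis and is known from the prothoracic gland, read 1088, 720.2 and 655 in the libraries labelled svp RNAi, against 3469.8, 1850.3 and 1633 in control on high sugar. Its control-diet values were 634, 553 and 347 in the libraries labelled svp RNAi, against 435, 291 and 175 in control. The high-sugar controls were the highest group and varied the most (interaction -2.27 ± 0.48, limma adjusted p = 0.0707). No marker list of the prothoracic gland was measured, so the tissue source of these values was not tested. CG32557, now named Mco4, averaged 863 ± 88.5 in the group labelled svp RNAi and 736 ± 252 in control on high sugar, and 3116 ± 954 in the group labelled svp RNAi and 458 ± 246 in control on the control diet (interaction -2.61 ± 0.55, limma adjusted p = 0.0707). The CG11191 gene averaged 107 ± 15.2 in the group labelled svp RNAi and 5.43 ± 1.29 in control on high sugar, and 17.4 ± 13.8 in the group labelled svp RNAi and 7.66 ± 2.08 in control on the control diet (interaction 3.29 ± 0.66, limma adjusted p = 0.0575).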
